A study of Mus musculus with 4 samples.

Results

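Collagen prolyl 4-hydroxylases, lysyl hydroxylases and lysyl oxidases were followed in subcutaneous grafts of the murine Lewis lung carcinoma line LLC, with cells labelled as expressing bioactive chemerin (LLC-Chem) or as wild type (LLC). The 10 genes were taken by name from the 47729 genes of the deposited table. They are the catalytic subunits P4ha1, P4ha2 and P4ha3 of prolyl 4-hydroxylase, the lysyl hydroxylases Plod1, Plod2 and Plod3, and the lysyl oxidases Lox, Loxl1, Loxl2 and Loxl3. All grafts were placed in the back of C57BL/6 mice, which are syngeneic with the line, and tumors were collected on day 5. Each library is a pool of 3 tumors, and each group has 2 such pools. LLC-Chem cells carried a pEFIN plasmid coding for murine chemerin (1-157), a form already active when secreted. The sample labels call the LLC cells wild type and the study also describes an empty vector. The transfected lines were isolated as single clones (G418 resistance), so that a difference between clones and an effect of chemerin cannot be told apart.

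Expression is given in RPM, that is, reads scaled to the same total in every library, from libraries whose fitted totals ran from 28470000 to 33990000 reads. At these depths 3 reads correspond to at most 0.105 RPM, a limit that covers counting error only. The lowest value of any of the 10 genes rested on 712 reads, so the spread between pools and not counting set the precision. Rarres2, the gene of chemerin, was at 102.2 and 98.2 RPM in the LLC pools and at 105.9 in the first and 105.8 in the second pool labelled LLC-Chem, a log2 fold change of 0.08 (SE 0.09) that was not called (adjusted p = 0.541 by limma with Benjamini-Hochberg adjustment). The transfected gene thus showed no detectable excess in the pools labelled LLC-Chem, and every direction given below follows the labels. The labels do not say whether the pools came from separate experiments, so the p-values measure only the spread between these pools, and with 2 pools against 2 an exact permutation test of a single gene cannot go below p = 0.33.

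Collagen chains are modified inside the cell before they fold. Prolyl 4-hydroxylases add the hydroxyl groups that hold the triple helix together, and lysyl hydroxylases modify lysines that later take part in cross-links and carry sugars. Both need molecular oxygen, iron, 2-oxoglutarate and ascorbate. Outside the cell, copper-dependent lysyl oxidases oxidize lysines and hydroxylysines of collagen and elastin, which then form covalent cross-links. Several genes of these families are known targets of the hypoxia-inducible factor HIF-1.

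The hydroxylases that changed rose, and the lysyl oxidases fell. P4ha1, Plod1 and Plod2 were higher in LLC-Chem tumors, by 1.63-fold, 2.40-fold and 1.95-fold. Lox, Loxl1, Loxl2 and Loxl3 were lower, at 29.5%, 35.7%, 28.8% and 71.8% of their LLC means. P4ha2, P4ha3 and Plod3 did not pass the test. All 10 genes were above the limit for testing, a mean of 1 RPM over the pools. By limma, at an adjusted p under 0.05, 3 of the 10 were called higher, where 9.54% of all genes tested were, and 4 were called lower, where 13.5% of all genes tested were. Both LLC-Chem pools lay above both LLC pools for 3 members, against 33.1% of all genes tested, and below both for 6 members, against 39.3%. P4ha1 is one of the hypoxia genes that the study itself listed as higher in these samples, so its rise is not independent evidence of that direction.

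**Figure D1:**
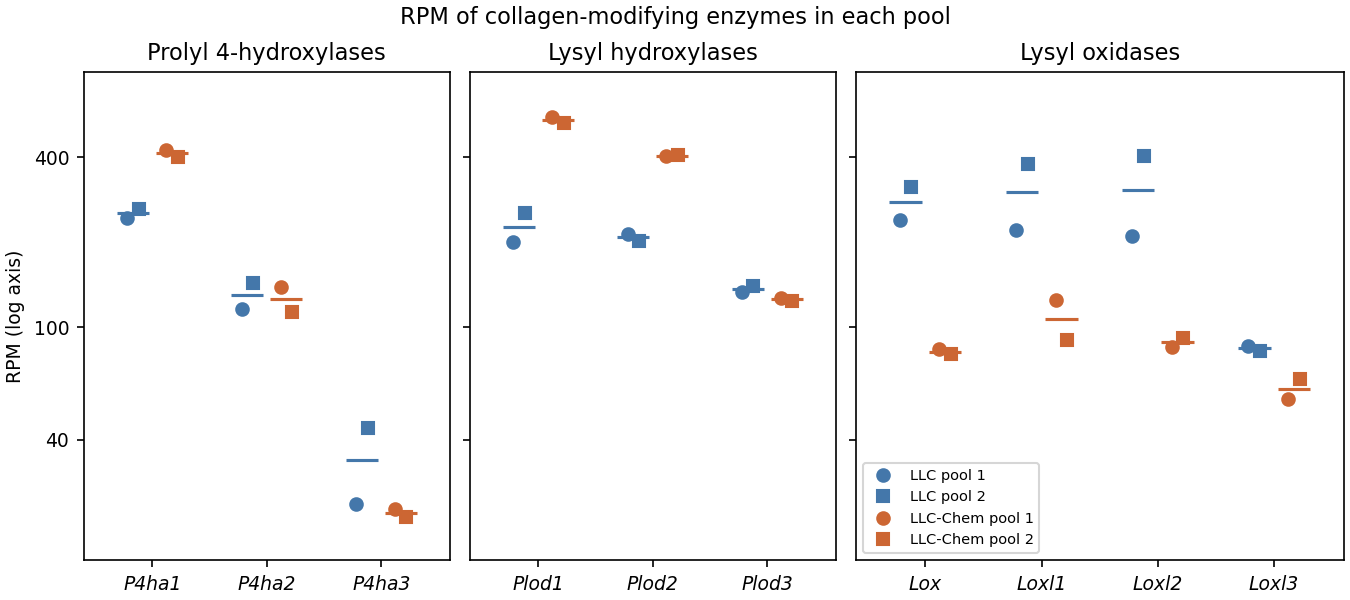
RPM (log axis) of the 10 enzymes in each pool, with circles for the first and squares for the second pool of a group and a line at the mean of the group. P4ha1, Plod1 and Plod2 lie above their LLC values in both LLC-Chem pools, and the 4 lysyl oxidases lie below them in both.

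Of the prolyl 4-hydroxylase subunits, P4ha1 passed the test and the other two did not. P4ha1 (ENSMUSG00000019916, chromosome 10 of GRCm38, 59323296 to 59373304, plus strand), the widely expressed catalytic subunit, was at 243.5 and 263.5 RPM in the LLC pools and at 423.3 and 402.3 RPM in the LLC-Chem pools. The groups did not overlap and the pools within each group lay close together. Its mean rose from 253.5 ± 14.2 to 412.8 ± 14.8 RPM (SD, n = 2 pools each). This is a log2 fold change of 0.70 ± 0.11 (SE, 95% interval 0.44 to 0.97, adjusted p = 0.016 by limma). P4ha2 (ENSMUSG00000018906, chromosome 11, 54100095 to 54131665, plus strand), the catalytic subunit of a second form of the enzyme, was at 116.4 and 143.1 RPM in LLC and at 138.9 and 113.0 RPM in LLC-Chem pools. The values of its groups overlapped, and the log2 fold change was -0.04 (95% interval -0.43 to 0.34, adjusted p = 0.851 by limma), an interval that leaves room for a change of that size in either direction. P4ha3 (ENSMUSG00000051048, chromosome 7, 100285520 to 100319699, plus strand), the least expressed of the subunits, was at 23.7 and 44.0 RPM in the LLC pools and at 22.8 and 21.2 RPM in the LLC-Chem pools. Its first LLC pool lay just above the LLC-Chem pools and its second well above them, and the log2 fold change of -0.54 was not called (SE 0.29, 95% interval -1.26 to 0.17, adjusted p = 0.207 by limma). Leaving out the first LLC pool gave a log2 fold change of -0.98 for P4ha3, and leaving out the second gave -0.10.

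Plod1 and Plod2 had the largest rises among the 10 genes. Plod1 (ENSMUSG00000019055, chromosome 4, 147909753 to 147936767, minus strand), whose loss in people causes the kyphoscoliotic form of Ehlers-Danlos syndrome, was at 200.4 and 254.1 RPM in the LLC pools and at 557.5 and 530.9 RPM in the LLC-Chem pools. Both LLC-Chem pools held more than either LLC pool by far more than the pools of a group differed. The log2 fold change was 1.27 ± 0.14 (SE, 95% interval 0.91 to 1.63, adjusted p = 0.0119 by limma), above that of 98.3% of the genes tested. Plod2 (ENSMUSG00000032374, chromosome 9, 92542223 to 92608428, plus strand), which hydroxylates the telopeptide lysines from which stable cross-links are made, was at 213.9 and 202.7 RPM in LLC and at 404.2 and 406.6 RPM in LLC-Chem pools. Its pools within a group were nearly equal, and its log2 fold change was 0.96 ± 0.10 (SE, 95% interval 0.71 to 1.21, adjusted p = 0.0109 by limma). Plod3 (ENSMUSG00000004846, chromosome 5, 136987019 to 136996648, plus strand), which also transfers sugars to hydroxylysine, was at 134.0 and 139.8 RPM in the LLC pools and at 127.4 and 124.3 RPM in the LLC-Chem pools. The LLC-Chem mean of Plod3 was 92.0% of the LLC mean, and the log2 fold change of -0.12 was not called (95% interval -0.35 to 0.11, adjusted p = 0.361 by limma). Exons of other genes cover 11.9% of the exon bases of Plod3, mostly those of Znhit1 on the opposite strand, and 6.4% of those of Plod2. Whether strand was used in counting is not given in the sources used here, so reads of these stretches are uncertain.

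Since some hydroxylases rose and others did not, the 250 bases before the transcript start were read for the core of the HIF binding motif. RefSeq (GRCm38.p6) windows were matched for 5 of the 10 members, P4ha1, P4ha2, P4ha3, Plod1 and Plod3. The core was searched as the words ACGTG and GCGTG on both strands (CACGT and CACGC on the strand shown). These words can overlap each other. P4ha1 and P4ha2 are shown as the prolyl 4-hydroxylases that did and did not rise, and Plod1 as the member with the largest rise, with the core words in capitals on the gene's strand, 5′ to 3′:
P4ha1 (chr10:59323046-59323295, plus strand): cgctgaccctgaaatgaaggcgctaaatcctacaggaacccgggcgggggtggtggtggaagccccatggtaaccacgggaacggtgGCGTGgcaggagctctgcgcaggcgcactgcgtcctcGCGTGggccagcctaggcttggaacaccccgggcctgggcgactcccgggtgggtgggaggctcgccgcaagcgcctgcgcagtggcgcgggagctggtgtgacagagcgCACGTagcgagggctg
P4ha2 (chr11:54100674-54100923, plus strand): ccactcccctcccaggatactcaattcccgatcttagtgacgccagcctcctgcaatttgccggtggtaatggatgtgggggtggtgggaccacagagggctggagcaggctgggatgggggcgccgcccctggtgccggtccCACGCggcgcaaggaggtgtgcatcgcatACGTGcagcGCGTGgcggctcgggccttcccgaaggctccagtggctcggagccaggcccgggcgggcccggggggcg
Plod1 (chr4:147936777-147937026, minus strand): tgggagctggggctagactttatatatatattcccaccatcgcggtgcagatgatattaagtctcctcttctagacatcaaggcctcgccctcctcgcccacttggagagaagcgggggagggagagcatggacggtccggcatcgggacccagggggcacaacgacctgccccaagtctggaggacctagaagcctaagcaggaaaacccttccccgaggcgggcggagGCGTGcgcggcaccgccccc

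The P4ha1 window held 3 core words, at 163, 126 and 16 bases before the RefSeq start. P4ha2 held as many, at 107, 78 and 69 bases, in a window that lies within an intron of a longer GENCODE transcript of the gene. Plod1 held 1, at 20 bases. Plod3, which was not called, held 4 in a window that also contains the first exon of Znhit1, and P4ha3 held 0. Of all 32851 promoter windows of this length, 38.6% held at least 1 core word, 16.7% at least 2 and 6.6% at least 3. The windows of the members are also richer in G and C than most, from 55.6% to 70.0% against a median of 52.4%. On the list of HIF targets described further on, windows were matched for 11 of the 14 genes, and 9 of these held a core word. With windows for Plod2 and the lysyl oxidases not used here, the 5 genes do not show whether the words go with the change, and a match describes the letters only.

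The lysyl oxidases fell. Lox (ENSMUSG00000024529, chromosome 18, 52516067 to 52529867, minus strand), the founding member of the family, was at 240.6 and 314.6 RPM in the LLC pools and at 83.7 and 80.4 RPM in the LLC-Chem pools. The groups were far apart, and the LLC-Chem pools nearly equal. The mean fell from 277.6 ± 52.3 to 82.0 ± 2.37 RPM (SD, n = 2). Its log2 fold change was -1.74 ± 0.15 (SE, 95% interval -2.11 to -1.37, adjusted p = 0.00882 by limma). Only 2.2% of the genes tested had a lower log2 fold change. Loxl1 (ENSMUSG00000032334, chromosome 9, 58287738 to 58313186, minus strand), which acts on elastin, was at 221.9 and 379.5 RPM in LLC and at 124.7 and 90.2 RPM in LLC-Chem pools. Its LLC pools differed 1.71-fold between themselves, and the log2 fold change of -1.45 (SE 0.28, 95% interval -2.16 to -0.74, adjusted p = 0.0265 by limma) became -1.83 when the first LLC pool was left out and -1.06 when the second was. With the replicate number as a block in limma, Loxl1 was not called (adjusted p = 0.0501).

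Loxl2 (ENSMUSG00000034205, chromosome 14, 69609068 to 69695834, plus strand), which cross-links collagen IV of basement membranes among other substrates, was at 211.4 and 403.3 RPM in the LLC pools and at 85.4 and 91.6 RPM in the LLC-Chem pools. The LLC pools of Loxl2 differed 1.91-fold, the most of any member between pools of a group, yet both lay above both LLC-Chem pools. The log2 fold change was -1.72 ± 0.29 (SE, 95% interval -2.45 to -0.98, adjusted p = 0.0204 by limma), and it became -2.18 when the first LLC pool was left out and -1.25 when the second was. A pseudogene copy, Gm21451 (chromosome 14, 69390854 to 69480287), shares 42.9% of the 50-base words of Loxl2 transcripts and was itself between 0.70 and 1.90 RPM. Reads that fit both genes could have been dropped or split in counting, so the level of Loxl2 is uncertain. Loxl3 (ENSMUSG00000000693, chromosome 6, 83034173 to 83052562, plus strand) was at 85.8 and 82.8 RPM in LLC and at 55.7 and 65.4 RPM in LLC-Chem pools. It had the smallest fall of the family, with a log2 fold change of -0.48 ± 0.12 (SE, 95% interval -0.77 to -0.19, adjusted p = 0.0404 by limma). The call of Loxl3 was lost without a trend in limma's eBayes (adjusted p = 0.0748), and 11.6% of its exon bases lie under Htra2 on the opposite strand.

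Loxl4, the remaining lysyl oxidase of the mouse and kept outside the 10 genes, went the other way. It was at 20.0 and 20.9 RPM in the LLC pools and at 30.1 and 28.9 RPM in the LLC-Chem pools. The LLC-Chem pools were both higher, by a log2 fold change of 0.52 ± 0.12 (SE, adjusted p = 0.0357 by limma).

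**Figure D2:**
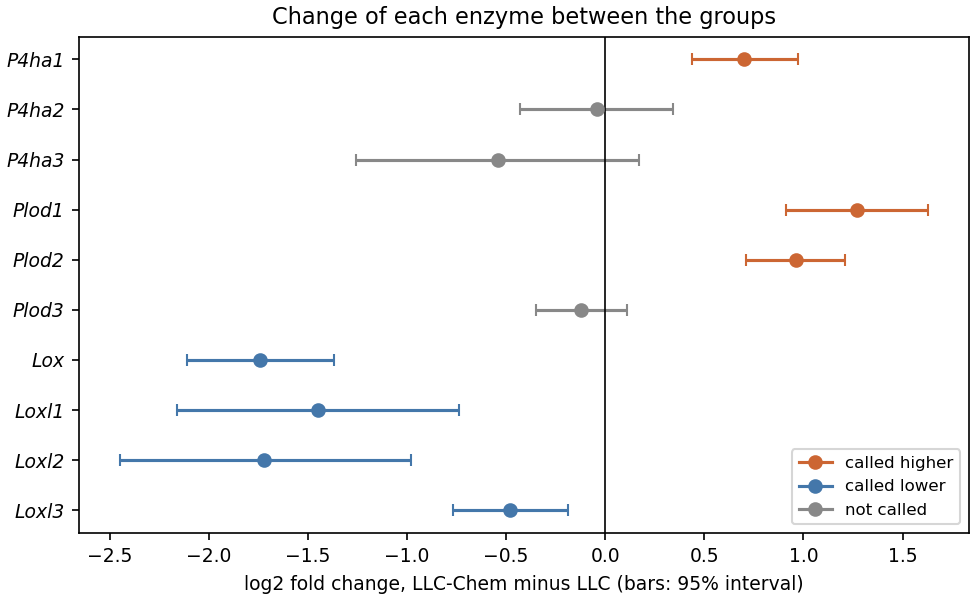
Log2 fold change (LLC-Chem minus LLC, on log2(RPM + 0.5)) of each enzyme with its 95% interval from limma over 2 pools per group, coloured by the call at an adjusted p under 0.05. Plod1, Plod2 and P4ha1 lie to the right of 0 and the 4 lysyl oxidases to the left, with wider intervals for Loxl1 and Loxl2.

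To compare levels between genes, RPM were divided by the length of the exons of each gene in kilobases. On this scale Loxl1 had the highest mean in LLC tumors, at 91.2 RPM per kb, above P4ha1 at 61.6. Lox at 58.1 and Loxl2 at 56.9 followed, and neighbours from P4ha1 to Plod2 (38.6) had overlapping pools. The LLC pools of Loxl2 (39.1 and 74.6) also overlapped those of Loxl1 (67.3 and 115.1). Since the level of Loxl2 is uncertain as well, the first place of Loxl1 is not firm. In LLC-Chem tumors the first places were taken by P4ha1 at 100.3, Plod1 at 80.4 and Plod2 at 75.2 RPM per kb, 3 neighbours whose pools did not overlap. Loxl1 came next at 32.6, overlapping with Plod3 at 27.9. Lox at 17.2 and Loxl2 at 16.4 overlapped as well, and P4ha3 was last in both groups, at 10.8 in LLC and 7.02 in LLC-Chem.

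The summed level of the lysyl hydroxylases was 98.9 and 106.1 RPM per kb in the LLC pools and 185.6 and 181.4 in the LLC-Chem pools. That of the prolyl 4-hydroxylases was 85.4 and 101.0 against 132.4 and 122.7. The lysyl oxidases summed to 175.4 and 273.5 RPM per kb in the LLC pools and to 83.3 and 75.3 in the LLC-Chem pools. In LLC tumors transcripts of the hydroxylases and of the oxidases were thus of similar abundance, with a ratio of 1.05 in the first and 0.76 in the second pool. In LLC-Chem tumors this ratio was 3.82 and 4.04.

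Within the families the make-up shifted as well. Plod1 made up 29.9% and 35.4% of lysyl hydroxylase transcripts in the LLC pools and 44.4% and 43.3% in the LLC-Chem pools. Plod3 went from 30.0% and 29.2% to 15.2% in both, while Plod2 stayed between 35.4% and 41.6% in all 4 pools. P4ha1 was the main prolyl 4-hydroxylase in each pool, with 69.3% and 63.4% in LLC and 77.7% and 79.7% in LLC-Chem. Among the lysyl oxidases of the 10 genes Loxl1 was first in each pool as counted, from 36.3% to 45.4%, and Loxl3 went from 10.6% and 6.58% to 14.5% and 18.9%. The uncertain level of Loxl2, which shares sequence with Gm21451, carries over to the lysyl oxidase sums, to their shares and to the first place of Loxl1. These sums and shares were not tested.

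**Figure D3:**
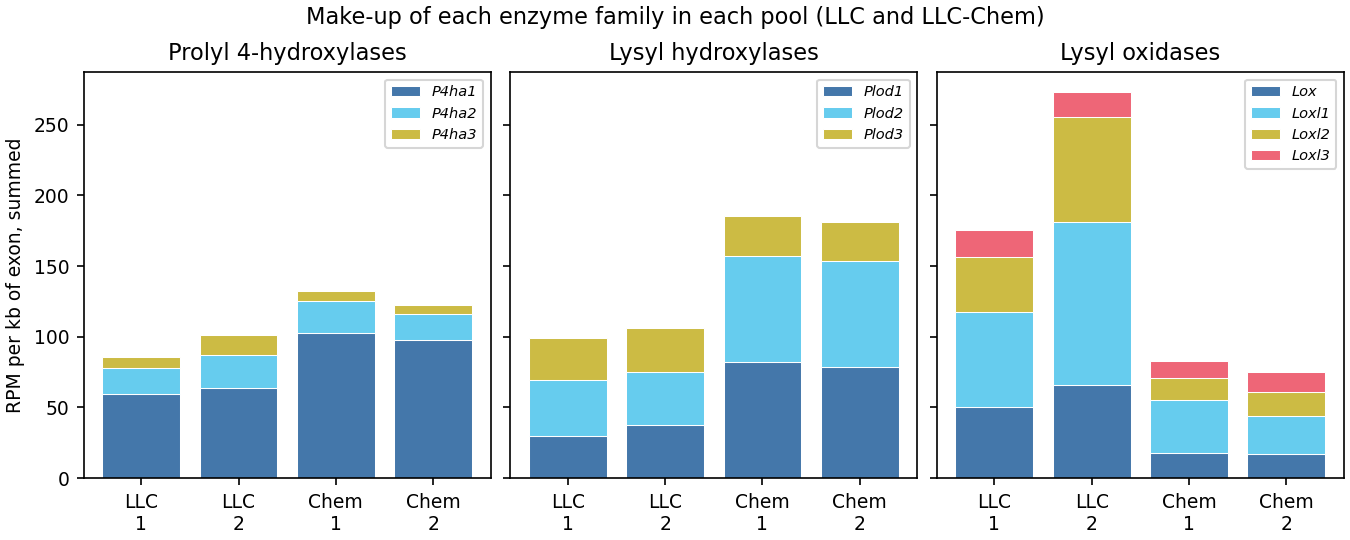
RPM per kb of exon, stacked by gene, for the 3 enzyme families in each of the 4 pools. The lysyl hydroxylase bars are 98.9 and 106.1 in LLC and 185.6 and 181.4 in LLC-Chem, while those of the lysyl oxidases are 175.4 and 273.5 in LLC and 83.3 and 75.3 in LLC-Chem.

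The main substrates of these enzymes, the fibrillar collagens, were looked at next. Col1a1, which codes for the alpha 1 chain of type I collagen, was at 5768 and 9694 RPM in the LLC pools and at 2912 and 2383 RPM in the LLC-Chem pools. Its log2 fold change was -1.51 (SE 0.33, adjusted p = 0.0334 by limma). Col1a2, the partner chain, fell by 1.46 (adjusted p = 0.0383 by limma) and Col5a2, a chain of type V collagen, by 1.45 (adjusted p = 0.0265). These collagens shared the uneven LLC pools of Loxl1 and Loxl2, with the second pool 1.68, 1.82 and 1.83 times the first. Col3a1, the chain of type III collagen, behaved otherwise, at 11581 and 23950 RPM in LLC and 24122 and 22762 RPM in LLC-Chem pools. Its groups overlapped and it was not called (log2 fold change 0.49, adjusted p = 0.54 by limma), a value that turned to -0.03 without the first LLC pool. Of the 8 fibrillar collagen genes tested out of 9 listed, limma called 3 lower, where 13.5% of all genes were called lower, and left 5 uncalled, with a median log2 fold change of -0.29 against -0.04 over all genes tested.

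Set against type I collagen in the same pool, a ratio chosen after the values were seen and not tested, Lox, Loxl1 and Loxl2 were nearly level. Per 1000 RPM of Col1a1 and Col1a2 together, Loxl1 was at 20.9 and 20.5 RPM in the LLC pools and at 22.7 and 19.7 in the LLC-Chem pools. Lox was at 22.7 and 17.0 against 15.2 and 17.6, and Loxl2 at 19.9 and 21.8 against 15.6 and 20.0. For each of these 3 genes the range of the pools of one group overlapped that of the other, while Loxl3 went from 8.09 and 4.48 to 10.1 and 14.3. All 6 hydroxylases were higher on this scale in both LLC-Chem pools, where type I collagen itself was lower. In RPM the LLC-Chem means of P4ha2, P4ha3 and Plod3 were 97.1%, 65.0% and 92.0% of LLC. Their rise on this scale thus came from the lower divisor alone. Plod1 went from 18.9 and 13.7 to 101.6 and 116.1, P4ha1 from 23.0 and 14.3 to 77.1 and 88.0, and Plod2 from 20.2 and 11.0 to 73.6 and 88.9. The hydroxylases that were not called shifted less, P4ha2 from 11.0 and 7.74 to 25.3 and 24.7, Plod3 from 12.6 and 7.57 to 23.2 and 27.2, and P4ha3 from 2.23 and 2.38 to 4.15 and 4.64. Col3a1 shared this shift, at 1.09 and 1.30 times type I collagen in LLC and 4.39 and 4.98 times in LLC-Chem pools.

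Most genes that work beside the hydroxylases in the endoplasmic reticulum did not pass the test. On a list of 14 folding partners, which also held Loxl4, 13 were tested, and limma called 3 higher and 1 lower, where 9.54% and 13.5% of all genes were called, with a median log2 fold change of 0.10. P4hb, the protein disulfide isomerase that forms the other subunit of prolyl 4-hydroxylase, was at 1194 and 1372 RPM in LLC and at 1588 and 1417 RPM in LLC-Chem pools and was not called (log2 fold change 0.23, adjusted p = 0.331 by limma). P3h2, a prolyl 3-hydroxylase, rose by 1.30 in log2 terms (adjusted p = 0.0188 by limma), from only 1.95 and 2.35 RPM. Crtap, a part of the prolyl 3-hydroxylase complex, rose by 0.43 (adjusted p = 0.0457, and 0.0833 without a trend in eBayes). The prolyl isomerase Fkbp14 fell by 0.87 (adjusted p = 0.0334 by limma, and 0.0552 without a trend).

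Procollagen processing genes went both ways. The counts of this and the next lists stand against 9.54% of all genes called higher and 13.5% called lower, and with so few genes a single call lies near those shares. Of 6 tested out of 8, limma called 1 higher and 2 lower, with a median log2 fold change of -0.54. Adamts14, an N-proteinase, was higher by 0.56 (adjusted p = 0.034 by limma, and 0.0659 without a trend). Pcolce2, an enhancer of the C-proteinase, fell by 1.25 (adjusted p = 0.027), and Adamts2, another N-proteinase, by 1.16 (adjusted p = 0.037 by limma, and 0.0647 without a trend). Of 4 basement membrane collagens tested out of 6, limma called Col4a2 higher and the others not, with a median of 0.00, while DESeq2 called 2 higher and 1 lower and edgeR's likelihood ratio test 1 in each direction. The log2 fold change of Col4a2 was 0.45 (adjusted p = 0.0468 by limma, and 0.0729 without a trend). Of the 4 elastic fibre genes, 0 were called by limma, edgeR's quasi-likelihood test or DESeq2, 1 of them, Fbln5, was called lower by edgeR's likelihood ratio test, and the same 1 had an unadjusted p under 0.05 by limma. Their median was -0.61, and the LLC pools of Eln, the gene of elastin, lay 5.03-fold apart. Among 3 genes of ascorbate and copper supply tested out of 4, the ascorbate carrier Slc23a2 fell by 0.42 (adjusted p = 0.0411 by limma, and 0.0719 without a trend), with a list median of -0.31.

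The members were then placed beside hydroxylases and targets of the oxygen response. The Egln enzymes and Hif1an hydroxylate the HIF subunits themselves and share the cofactors of the collagen hydroxylases. Of 5 such genes tested, limma called 1 higher, where 9.54% of all genes were called higher, and left 4 uncalled, with a median of 0.29. DESeq2 called 2 higher. The gene called was Egln3, itself a HIF target, at 149.7 and 156.9 RPM in LLC and at 337.2 and 321.9 RPM in LLC-Chem pools. Its log2 fold change was 1.10 ± 0.10 (SE, adjusted p = 0.00909 by limma).

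The list of HIF targets left out the members, although several genes of their families are HIF-1 targets too, so it does not stand for every HIF target. For all 14 HIF target genes listed, both LLC-Chem values exceeded both LLC values. This holds for 33.1% of all genes tested. By limma 9 of the 14 were called higher and 5 were not called, where 9.54% of all genes were called higher, with a median log2 fold change of 0.78. The other tests called more of them higher, 11 by edgeR's quasi-likelihood test, 12 by its likelihood ratio test and 13 by DESeq2. On this list 7 genes, Adm, Ndrg1, Pdk1, Vegfa, Hk2, Stc1 and Ero1l, are also among those the study chose on these samples, so that the count is not independent evidence of its direction. Adm, which codes for the vasodilator adrenomedullin, was at 28.6 and 31.2 RPM in LLC and at 102.7 and 87.6 RPM in LLC-Chem pools, which is a rise of 1.65 on the log2 scale (adjusted p = 0.00665 by limma). Stc1, which codes for a secreted glycoprotein, rose by 1.43 (adjusted p = 0.0117 by limma). Ankrd37 rose by 1.20 (adjusted p = 0.0172 by limma) and Bnip3, a mitophagy receptor, by 1.08 (adjusted p = 0.0144 by limma). The study did not name Ankrd37 and Bnip3 among its hypoxia genes, but the list used here was written with earlier results of these data known. They are thus not independent evidence either. The log2 fold changes of P4ha1, Plod1 and Plod2, from 0.70 to 1.27, lay within the range of this list, 0.30 to 1.65, and those of the 4 lysyl oxidases and of P4ha2, P4ha3 and Plod3 below it.

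**Figure D4:**
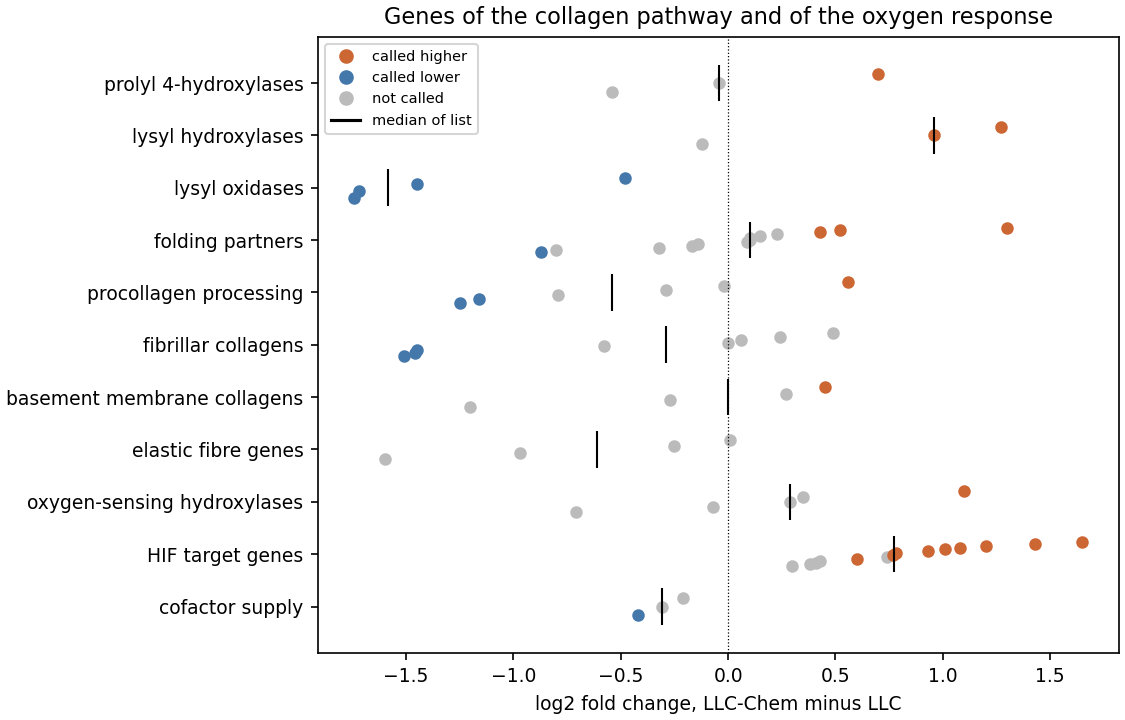
Log2 fold change (LLC-Chem minus LLC) of every tested gene of the 3 enzyme families and of 8 related lists, coloured by limma's call at an adjusted p under 0.05, with the list median as a black line. The genes of the HIF target list all lie to the right of 0 (median 0.78), the lysyl oxidases to the left (median -1.58).

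Markers of cell types that make or use these enzymes differed between the groups. In bulk tumors fewer cells of a type and less RNA per cell cannot be told apart. By limma, which called 13.5% of all genes lower, endothelial markers were called lower for 7 of 7 genes, with summed levels of 242.5 and 162.4 RPM in the LLC pools and of 55.2 and 30.0 RPM in the LLC-Chem pools. For mural cells, 4 of 5 markers were called lower, with sums of 164.0 and 126.3 against 38.3 and 25.1 RPM. The quasi-likelihood test of edgeR called 3 of them lower, its likelihood ratio test 5 and DESeq2 4. For leukocytes, 3 of the 5 markers tested out of 7 were called lower, with sums of 1002 and 1378 against 713.4 and 385.8 RPM. Here the quasi-likelihood test called 2 lower, the likelihood ratio test 4 and DESeq2 4. The T cell marker Cd3e stayed below 1 RPM. Fibroblast markers went both ways. Of 5 tested, Pdgfra was called higher by limma (log2 fold change 0.72, adjusted p = 0.045), while edgeR's quasi-likelihood test called 0 of the 5 and both its likelihood ratio test and DESeq2 called 3 higher and 1 lower. At an unadjusted p under 0.05, limma and the quasi-likelihood test each gave 3 higher and 1 lower. The summed level, most of it Dcn, was 1439 and 2268 RPM in LLC against 3259 and 2461 RPM in LLC-Chem pools. Dcn and Lum were higher in both LLC-Chem pools without being called by limma (adjusted p = 0.0753 and 0.0776). Thy1 was at 51.4% of its LLC mean and lower in both LLC-Chem pools (adjusted p = 0.0514 by limma), its LLC pools differed 1.68-fold, and Fap was at 80.6% with overlapping pools. The part of these cells in the changes of the 10 enzymes was not tested.

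Adipocyte, skeletal muscle and keratinocyte markers gave low sums. Adipocyte markers summed to 28.0 and 20.0 RPM in LLC and to 39.7 and 14.2 RPM in LLC-Chem pools, with Cfd called higher among 3 tested out of 4. Skeletal muscle markers summed to at most 5.35 RPM, with Ckm and Myh4 listed at 0 in every pool and Tnnt3, the one of 5 that was tested, called higher. Keratinocyte markers summed to at most 4.45 RPM, with Krt10, the one of 3 tested, not called. The 3 erythroid genes were not called, nor had they an unadjusted p under 0.05 by limma, and their sum was 3.80 RPM in the second LLC-Chem pool against 42.1 to 132.0 RPM in the other pools. Lung epithelial markers summed to between 195.4 and 306.0 RPM, nearly all of it keratins, with Nkx2-1 listed at 0 in every pool, Sftpc at most 0.10 RPM and Epcam at most 0.20 RPM, while the keratins Krt8 and Krt18 were between 82.8 and 167.1 RPM. Limma called neither of these keratins, while edgeR's likelihood ratio test and DESeq2 each called Krt8 lower.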

How the data were processed

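RNA was extracted from LLC and LLC-Chem tumors, with 2 pools of 3 tumors per group, and sequenced as paired ends from TruSeq libraries. Reads were aligned by the authors with STAR (GRCm38.p4) and assigned to Ensembl genes by HTSeq, and the deposited values are RPM of 47729 genes. Tool versions and the strand setting are not given in the sources used here. The deposited RPM are whole multiples of a step of 0.04997 RPM in every pool (100% of nonzero values, within 0.01 of a step). The reads appear to have been rescaled to 20000000 per pool and rounded up, so a step is not a read, and recovered reads carry that rounding. From the spacing of the steps, original totals of 30834000 and 28470000 (LLC) and 33990000 and 33518000 (LLC-Chem) were fitted.

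Groups follow the sample labels. Log2(RPM + 0.5) was fitted with limma 3.58.1 in R 4.3.3 (lmFit, eBayes with trend, two-sided) for 13694 genes whose mean reached 1 RPM. P-values were adjusted over all of them (Benjamini-Hochberg), and genes were called below 0.05. The added 0.5 understates the fold changes of genes at low RPM. Counts of called genes are read beside the share of all genes called, and no set test was run. On simulated data for this comparison with 13568 genes, 163 of 195 changed genes and 10 unchanged ones were called. On reads recovered from the steps, edgeR 4.0.16 called 1551 genes higher and 1600 lower by its quasi-likelihood test. Its likelihood ratio test and DESeq2 1.42.0 were also run. The other alternatives were pseudocounts of 0.1 and 1, no filter and a minimum of 5 RPM, TMM and median-of-ratios scaling, eBayes without trend, the replicate number as a block, and each pool left out. A crossed block was added after seeing the data.

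Gene positions and exon lengths come from GENCODE M21, which holds 98.9% of the identifiers, and promoter windows from RefSeq (GRCm38.p6). The 10 genes and all lists (folding partners, procollagen processing, fibrillar and basement membrane collagens, elastic fibre, oxygen-sensing hydroxylases, HIF targets, cofactor supply and 9 cell type marker lists) were chosen from textbook roles with earlier results of these data known. All 10 genes are named. Of the related lists, the text gives the called genes with the largest change, at most 4 per list, plus Col1a1, Col1a2, Col3a1, P4hb and Loxl4. Fbln5, Eln and the single markers were named after their values were seen. The value of another listed marker is not reported here. Tables and figures came from Python 3.11.15 (pandas 2.3.3, numpy 2.4.6, matplotlib 3.10.9).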

Additional observations from a re-analysis of the deposited data

How the results depend on the processing

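The 3 rises and 4 falls among the 10 enzymes were called in each of pseudocounts of 0.1 and 1, the stricter filter, TMM and median-of-ratios scaling, the crossed block, both edgeR tests and DESeq2. Without a trend in eBayes, Loxl3 (log2 fold change -0.48) was no longer called, leaving 3 falls among the members, and related genes numbered 10 higher and 5 lower against 15 and 7. The calls of Fkbp14, Crtap, Adamts2, Adamts14, Col4a2 and Slc23a2 were among those lost. Without a filter, 26260 genes were tested in place of 13694, and the cause of the lost calls was not tested. There limma called 1 gene higher and 0 lower, with 3394 and 4003 at an unadjusted p under 0.05, and 0 members and 0 related genes were called, with 7 members at an unadjusted p under 0.05. The log2 fold changes without a filter were 0.70 for P4ha1, 1.27 for Plod1, 0.96 for Plod2, -1.74 for Lox, -1.45 for Loxl1, -1.72 for Loxl2 and -0.48 for Loxl3. The likelihood ratio test of edgeR called 2006 genes higher. The log2 fold change of P4ha2, -0.04 as reported, turned to 0.0027 with TMM scaling, 0.00044 with edgeR's quasi-likelihood and 0.00041 with its likelihood ratio test, while the median of all genes moved from -0.043 to 0.001 with TMM and 0.00 with edgeR.

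Leaving out 1 pool leaves a group with a lone pool that is assumed to vary like the others. By limma the calls then numbered from 0 to 0, over all genes, members and related genes alike, with 998 to 2359 genes higher, 1580 to 2823 lower and 6 to 8 members at an unadjusted p under 0.05. The log2 fold changes ran from 0.65 to 0.76 for P4ha1, 1.10 to 1.44 for Plod1, 0.92 to 1.00 for Plod2, -1.93 to -1.55 for Lox, -1.83 to -1.06 for Loxl1, -2.18 to -1.25 for Loxl2, -0.59 to -0.36 for Loxl3 and -0.19 to 0.11 for P4ha2. Col3a1, not called, ran from -0.032 to 1.02.

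Replicate numbers are shared between the groups, but the labels do not say whether they pair the pools. Over 13694 genes the deviations of same-numbered pools correlated at -0.1405. A block for the replicate number gave 549 genes higher and 1064 lower, 3 members were higher and 2 lower, and 9 related genes were higher and 2 lower. The calls lost among the members were those of Loxl1 (-1.45, adjusted p = 0.0501 by limma) and Loxl3 (-0.48, adjusted p = 0.0828). Of the 17 called related genes named above, 8 were also called with the block. With the pairing crossed, an alternative added after seeing the data, 1579 genes were higher and 2320 lower.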
